A study of Caenorhabditis elegans with 2 samples.

Results

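Occupancy of eGFP-tagged NHR-28 was examined at 4 stress response regulator genes of Caenorhabditis elegans, namely nipi-3, cebp-1, jun-1 and zip-2, of 19973 protein-coding genes on the nuclear chromosomes. The genes were selected on the measured peak lists themselves, so their peaks are given as a description with no test. A region belonged to a gene when its summit, the position of highest signal, lay in the gene or within 5 kb of it. By that rule the 4 genes held 30 of 30000 regions in the pooled list, 33 in the list of replicate 1, 27 in that of replicate 2 and 3 of the 159 peaks of the thresholded list. Of the 3 thresholded peaks, 1 lay at nipi-3, 1 at jun-1 and 1 at zip-2, and cebp-1 had none.

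The assay was chromatin immunoprecipitation followed by sequencing (ChIP-seq), which recovers DNA bound by a protein, for NHR-28, a nuclear hormone receptor. All samples were whole L1 larvae, the first larval stage, of mixed sex from strain OP317, with the genotype unc-119(ed3) III; wgIs317, where wgIs317 is the integrated transgene that carries the tagged receptor. The 2 biological replicates form 1 group with no second condition, so each result below is a place and a level of occupancy, not a change. The labels name neither the cells that express the tagged receptor nor the strain of the controls, and whole animals do not show in which tissue a region was bound.

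NIPI-3 is a pseudokinase of the Tribbles family, needed in the epidermis for induction of the antimicrobial peptide gene nlp-29 on fungal infection, and it restrains CEBP-1 during larval development. CEBP-1, JUN-1 and ZIP-2 are transcription factors of the basic leucine zipper (bZIP) family, which bind DNA as dimers. CEBP-1 is the C/EBP factor of the DLK-1 kinase pathway of axon regeneration, JUN-1 is the Jun subunit of AP-1 with FOS-1 as its partner, and ZIP-2 drives irg-1 and other genes when translation is blocked by a bacterial toxin.

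The DNA under the leading summits shows what the highest regions of the 4 genes consist of. Sequences were read from the RefSeq genome WBcel235, the same assembly as ce11, and are printed 5′ to 3′ on the + strand. Capitals mark a match to a motif that was searched for: the octamer TTGCGAAA, the purine repeat GAGAGA, the letters TGATAA of intestinal zinc-finger factors, the SKN-1 core ATGTCAT or the heat shock element core GAANNTTC, each on either strand. The nipi-3 stretch reaches 110 bp to each side of the summit of the highest nuclear peak of the study, and lies between nipi-3 and rab-14.
nipi-3, chrX:15607659-15607879: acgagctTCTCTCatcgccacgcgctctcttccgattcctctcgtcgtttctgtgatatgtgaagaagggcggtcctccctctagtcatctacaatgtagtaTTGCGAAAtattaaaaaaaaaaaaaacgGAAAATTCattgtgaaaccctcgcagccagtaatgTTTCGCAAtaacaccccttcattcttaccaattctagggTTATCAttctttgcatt
The jun-1 stretch lies just before the start of the longest jun-1 transcript and is rich in runs of C and T on this strand.
jun-1, chrII:9112863-9113063: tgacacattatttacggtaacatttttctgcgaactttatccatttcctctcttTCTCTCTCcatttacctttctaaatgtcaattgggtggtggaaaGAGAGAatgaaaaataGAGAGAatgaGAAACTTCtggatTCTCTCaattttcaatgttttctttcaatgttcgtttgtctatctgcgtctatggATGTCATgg
At zip-2 the intronic stretch, ahead of the 2 shorter transcripts, held none of the motifs, nor did the 29 bases around the thresholded summit in the 3′ UTR.
zip-2 intron, chrIII:833814-833934: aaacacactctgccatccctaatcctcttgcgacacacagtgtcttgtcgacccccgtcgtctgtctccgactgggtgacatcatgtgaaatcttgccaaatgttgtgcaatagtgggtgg
zip-2 3′ UTR, chrIII:835705-835733: tatcccttatcccttattcaccaacctca
The highest cebp-1 region, which is not a thresholded peak, is shown for contrast and has no match in the bases printed.
cebp-1, chrX:1456884-1457004: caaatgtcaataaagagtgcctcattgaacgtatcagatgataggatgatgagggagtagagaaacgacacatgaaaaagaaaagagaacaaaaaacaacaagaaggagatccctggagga

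Signal is the authors' value for each region, set relative to a control, and its size can be compared only within 1 list. Ranks below are by signal among the nuclear regions of a list, that is without mitochondrial regions, with rank 1 the highest of 29975 in the pooled list, 29971 in replicate 1 and 29974 in replicate 2. Over the nuclear pooled regions the signal ran from 12.5 to 125.8 with a median of 17.1. It ran from 8.37 to 79.4 with a median of 11.3 in replicate 1, and from 6.39 to 59.3 with a median of 9.0 in replicate 2. The thresholded list held 134 nuclear peaks, whose lowest signal was 48.9 and median 58.1.

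nipi-3 had the highest nuclear peak of the pooled list. The gene (WBGene00010700) lies on the + strand of X from 15607969 to 15610623 with 1 transcript, and the peak spans X 15607604 to 15607933 in the intergenic DNA between nipi-3 and the divergent gene rab-14, which encodes a Rab GTPase. Its summit was 200 bp before the nipi-3 start and 1134 bp before that of rab-14. The pooled signal was 125.8, the signal of replicate 1 was 79.4 at rank 1, and the signal of replicate 2 was 48.3 at rank 7. Both replicates therefore placed this promoter region among their 7 highest nuclear regions, with ranks 7 times apart.

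The shape of the nipi-3 peak differed between the replicates. Replicate 1 had 1 overlapping region with its summit 205 bp before the start. Replicate 2 had 2 overlapping regions, the larger with its summit 302 bp before the start and the smaller, of signal 15.6 and rank 1903, with its summit 100 bp before it. The pooled summit fell between them, so a match by summits within 100 bp would give rank 1903 in place of 7. Such splits were found in other peaks too, as 14 of the 134 nuclear thresholded peaks had at least 2 overlapping regions in replicate 2 and 20 had them in replicate 1.

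The nipi-3 peak stood far above the other regions of the locus. The other 4 pooled regions of the locus had signals from 15.5 to 22.6, against a median of 17.1 for all nuclear regions. The nearest, 753 bp before the start and closer to rab-14, had a pooled signal of 21.8 and ranked 10100 and 4701 in the 2 replicates. Another lay in the nipi-3 3′ UTR with a signal of 18.8, and the highest of the 4 lay in the 3′ UTR of ergi-3 and 33 bp before the start of K09E9.3, both genes downstream. The peak was 5.56 times the next region of the locus in the pooled list, 6.16 times in replicate 1 and 3.09 times in replicate 2, where the next region is the smaller part of the split peak. Against other regions within 5 kb of its summit the ratio was 5.76, the second highest among the 130 nuclear thresholded peaks with such a neighbour, for which the median was 2.56, the quartiles 2.04 and 3.12, and the maximum 5.80.

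**Figure D1:**
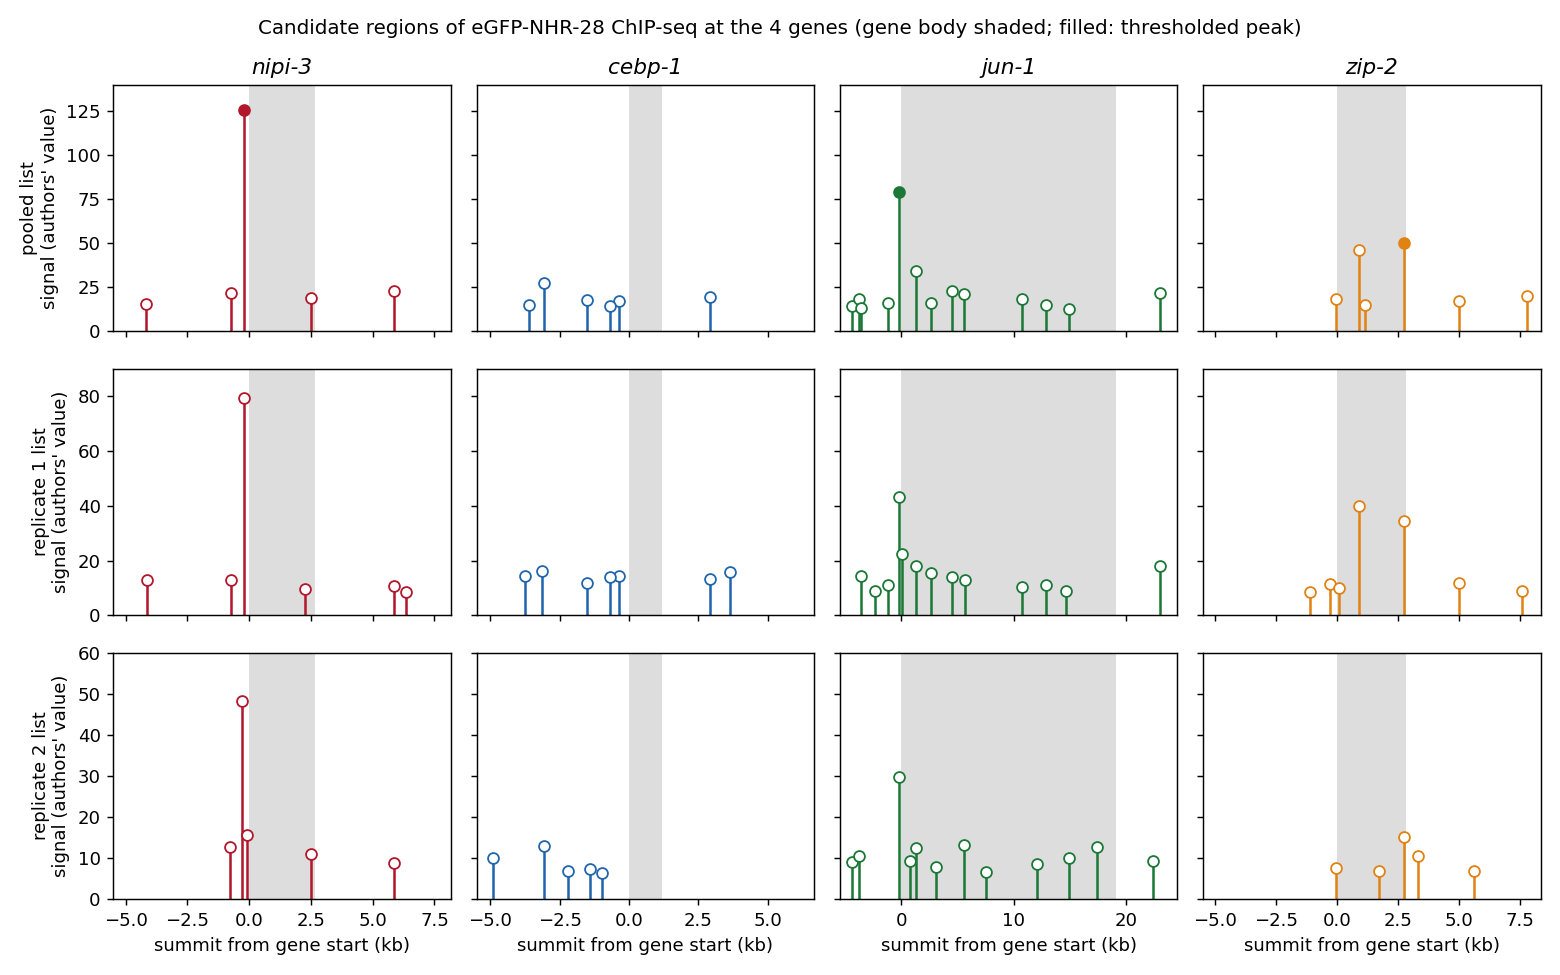
Each column is 1 gene and each row 1 list (pooled, replicate 1, replicate 2); a stem is a candidate region, placed by the distance of its summit from the gene start in kb (negative is upstream of the gene) and as high as the authors' signal, with the gene body shaded and thresholded peaks filled. nipi-3 and jun-1 each show 1 tall stem just before the gene in every list, and cebp-1 shows no region above 27.3. zip-2 shows 2 tall stems in the pooled list and replicate 1 but only low ones in replicate 2, the highest of them at the end of the gene.

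jun-1 had the next highest peak of the 4 genes, again just before its start. The gene (WBGene00012005) spans II 9113157 to 9132231 on the + strand and has 9 annotated transcripts, each with its own start. The peak spans II 9112798 to 9113127, with its summit 194 bp before the start of the longest transcript. The pooled signal was 79.1 at rank 22, and the replicates gave 43.1 at rank 36 and 29.8 at rank 50. The replicate summits lay 188 and 191 bp before the start, so all 3 lists placed it within 6 bp of the pooled summit. A noncoding RNA gene on the opposite strand, T24H10.11, lies inside the region. Its start at II 9112958 is nearer to the pooled summit, at 9112963, than the jun-1 start is. Replicate 1 had a further overlapping region in the jun-1 5′ UTR, 32 bp past the start, with a signal of 22.3 at rank 710.

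The body of jun-1 held further regions, none of them a thresholded peak. The highest lay in the intron 1282 bp past the start, with a pooled signal of 34.2 at rank 698 and replicate ranks of 2412 and 5217. The peak before the gene was 2.32 times this one. Another intronic region, 319 bp past the start of the transcript T24H10.7f, had a signal of 21.1 and was found at rank 9676 in replicate 1 and rank 4077 in replicate 2. A pooled region 713 bp past the start of T24H10.7d had the lowest signal of the locus, 12.6, and overlapped regions at rank 27404 in replicate 1 and rank 11134 in replicate 2. In replicate 2 a region at rank 4694 lay 201 bp before the start of T24H10.7c. In all, jun-1 held 13 pooled regions over a window of 29.1 kb, and 6 of them overlapped a region in each replicate.

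zip-2 differed from nipi-3 and jun-1 in place and in repeatability. The gene (WBGene00019327) spans III 832982 to 835814 on the + strand, and 2 of its 3 transcripts start inside it, at 834088 and 834305. The thresholded peak, III 835554 to 835883, had its summit in the 3′ UTR, 95 bp before the end of the gene and 32 bp from the end of dos-3, a gene on the opposite strand that converges on it. The pooled signal was 50.2 at rank 121. Replicate 1 gave 34.6 at rank 77 and replicate 2 gave 15.2 at rank 2190. The replicate ranks thus lay 28.4 times apart, against a median of 4.05 over the 133 nuclear peaks found in both replicates, and 17 of those peaks had a wider gap. The ratio was 7 at nipi-3, also above that median, and 1.39 at jun-1.

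The other high region of zip-2 missed the threshold and rested on replicate 1. It spans III 833709 to 834038 in an intron of the long transcript, with its summit 214 bp before the start of the transcript K02F3.4.1. Ahead of it in zip-2 lie 2 noncoding genes. They are linc-37 (III 832984 to 833347) and the small nucleolar RNA gene K02F3.15 (III 833435 to 833609). The pooled signal of the intronic region was 46.3 at rank 166. In replicate 1 it was the highest region of the locus, with 39.8 at rank 45, and no region of replicate 2 overlapped it. The list of replicate 2 was cut at 30000 regions, so a missing region means a signal below 6.39 or no call, not absence of binding. The ratio of the highest to the next region at zip-2 was 1.08 in the pooled list and 1.15 in replicate 1, where the order of these 2 sites was reversed. In replicate 2 the 3′ UTR peak was 1.44 times the next region of the locus, which lay in an intron of dos-3.

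The zip-2 sites show where the threshold fell. The 2 lowest nuclear peaks inside it had signals of 49.09 and 48.94, and the next 2 regions outside it had 48.85 and 48.77. The 3′ UTR peak of zip-2 lay just inside, and 31 nuclear regions separated the threshold from the intronic one. By the authors' −log10 q the order was the other way, with 1.99 for the 3′ UTR peak and 2.10 for the intronic region. Of the nuclear thresholded peaks, 63 had a lower −log10 q than that intronic region.

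cebp-1 had no thresholded peak in the gene or within 5 kb. The gene (WBGene00016997) lies on the − strand of X from 1452695 to 1453868. Its highest region, X 1456779 to 1457108, was intergenic, 3076 bp upstream of cebp-1 and 2078 bp from the start of D1005.2. The pooled signal was 27.3 at rank 2375, and the replicates gave 16.3 at rank 3865 and 12.9 at rank 4578. The promoter itself had a region 346 bp upstream with a signal of 17.2 at rank 14698, close to the median of all nuclear regions. Replicate 1 had it at rank 6769 and replicate 2 did not list it. Downstream of the gene, a region in an intron of W05H7.1 had a signal of 19.4 at rank 10115.

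**Figure D2:**
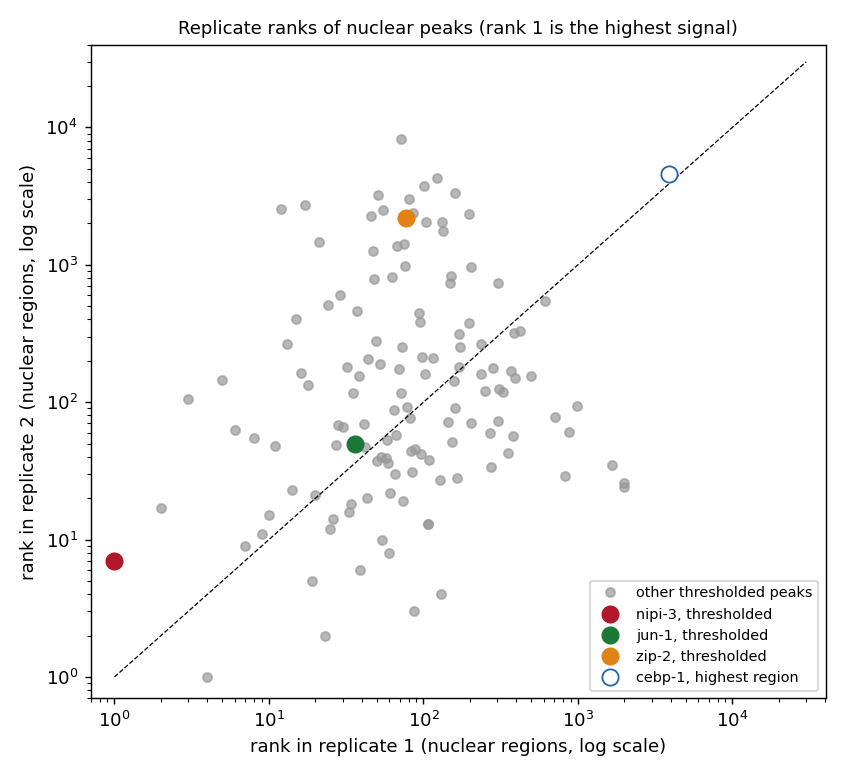
Each point is a nuclear thresholded peak, placed by its rank in replicate 1 (horizontal) and in replicate 2 (vertical), both on log scales with rank 1 the highest signal; the open circle is the highest cebp-1 region, and the dashed line marks equal ranks. jun-1 sits near the line at ranks 36 and 50, nipi-3 above it at 1 and 7, and zip-2 far above it at 77 and 2190.

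Regions of these loci recurred in both replicates to different extents. Of the 30 pooled regions, 16 (53.3%) overlapped a region of each replicate by at least 1 bp, 13 overlapped replicate 1 only and 1 replicate 2 only. Over all nuclear pooled regions the share in both was 34.7%, and for nuclear thresholded peaks it was 133 of 134. By gene, 4 of 5 regions recurred at nipi-3, 3 of 6 at cebp-1, 6 of 13 at jun-1 and 3 of 6 at zip-2. These counts allow 1 replicate region to serve 2 neighbouring pooled regions, as happened at jun-1 and at zip-2.

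Set against all protein-coding genes, 3 of the 4 genes had a thresholded peak, where 1.98% of genes (396) did by the same window. The same 3 genes held a region among the 159 highest of replicate 1, mitochondrial regions counted in the 159, where 1.99% of genes did. For replicate 2 nipi-3 and jun-1 did, against 1.95%, and these 2 genes were also the ones with such a region in both replicates, against 0.851%. With the summit within 1 kb of the gene start, nipi-3 and jun-1 kept a thresholded peak, against 0.501% of genes. Since the genes were chosen on these lists, nothing is read from the difference between their counts and these shares.

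The highest pooled signal of each gene was also set against that of all protein-coding genes. Over the 17429 genes with a pooled region the median was 23, and over all genes, with the 2544 that had no region taken as lowest, it was 21.9. At nipi-3, 4 genes (0.0200%) reached its value, which are the 4 genes that share its peak by the 5 kb rule, namely nipi-3, rab-14, ent-2 and K09E9.3. For jun-1 the number was 73 genes (0.365%), with 0.601% in replicate 1 and 0.781% in replicate 2. For zip-2 it was 369 genes (1.85%) in the pooled list and 0.726% in replicate 1, but 23.3% in replicate 2. The zip-2 value of replicate 1 is that of the intronic region, and those of the pooled list and replicate 2 are of the 3′ UTR peak. For cebp-1 it was 4841 genes (24.2%), with 36.2% in replicate 1 and 41.2% in replicate 2.

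**Figure D3:**
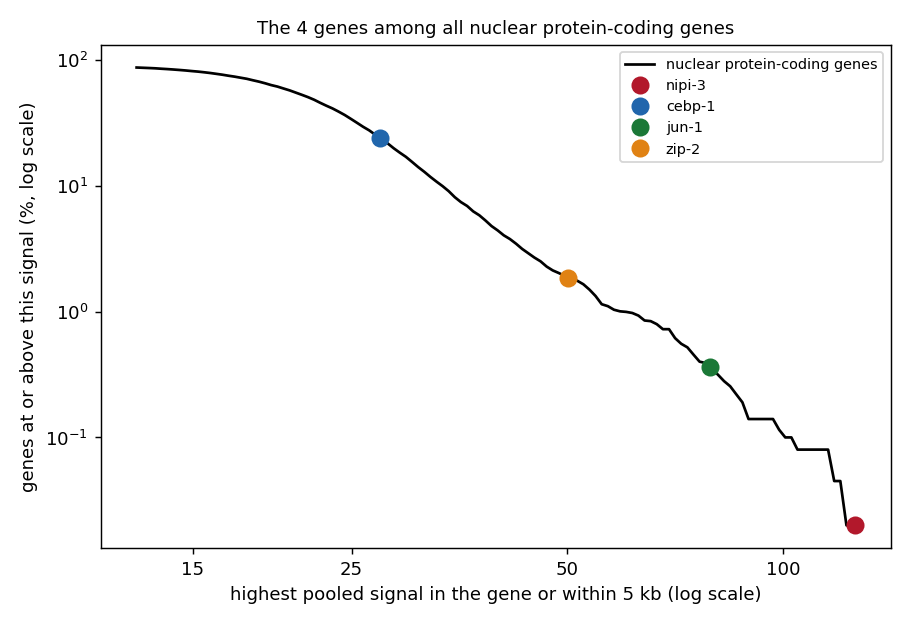
The curve gives, for each highest pooled signal in a gene or within 5 kb (log scale), the percent of nuclear protein-coding genes at or above it (log scale). cebp-1 lies on the bend at 24.2%, zip-2 at 1.85%, jun-1 at 0.365% and nipi-3 at the end of the curve.

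The number of regions was less uneven than their height. nipi-3 had 5 pooled regions, cebp-1 6, zip-2 6 and jun-1, with the longest window, 13, against a median of 3 over all genes. Per kb of window this was 0.395 at nipi-3, 0.537 at cebp-1, 0.447 at jun-1 and 0.468 at zip-2, against a median of 0.262. The gene without a thresholded peak, cebp-1, thus had the densest regions of the 4, and 9.58% of genes had as many or more per kb.

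The windows also hold other genes, and a peak cannot be given to 1 gene by distance alone. The nipi-3 peak lay 4083 bp from ent-2 and 3997 bp from K09E9.3. The jun-1 peak was within 5 kb of T24H10.4 at 1723 bp and of dnj-23, a DnaJ-domain protein gene, at 4363 bp. The zip-2 peak was within 5 kb of ceeh-1, an epoxide hydrolase gene, at 3442 bp and of K02F3.9 at 4739 bp. For nipi-3 and jun-1 the gene was also the one with the nearest protein-coding start. At jun-1 the start of the noncoding gene T24H10.11 was nearer. No protein-coding start lay within 1 kb of the thresholded zip-2 summit.

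The motif search compared 200 bp windows around the summits with all 29975 nuclear pooled regions, on both strands. The sites of bZIP factors were searched as TGACTCA for AP-1, TGACGTCA for the cyclic AMP response element, TTGCGCAA for C/EBP, TTGCGC for the start of the C/EBP site, ATGTCAT for the core of the SKN-1 site and TGACG for the bZIP core, which lies within the cyclic AMP response element. The other letters were AGGTCA for the core of nuclear receptor sites, TGATAA for the sites of intestinal zinc-finger factors such as ELT-2, GAGAGA for purine repeats, GAANNTTC for the heat shock element and CACGTG for the E-box. Over the highest region of each of the 4 genes, 6 pairs of a region and a motif matched. The nipi-3 window held TGATAA (19.6% of all regions, 8.96% of thresholded peaks) and GAANNTTC (14.4% and 13.4%). The jun-1 window held 5 matches to GAGAGA, 2 of them overlapping, a motif with at least 1 match in 9.52% of all regions and 41.8% of thresholded peaks. At least 5 such matches were found in 0.544% of all regions and in 6 of the 134 thresholded peaks. One match at jun-1 covers the summit itself, and the same window held ATGTCAT (2.39% and 2.99%) and GAANNTTC. The cebp-1 window held TGACG (15.2% and 28.4%), 83 bp from the summit and outside the bases printed.

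Neither zip-2 window held any of these letters, and the 3 windows at thresholded peaks had no match to AGGTCA (3.96% of all regions, 6.72% of thresholded peaks), TGACTCA (1.57% and 3.73%), TGACGTCA (0.844% and 0.746%), TTGCGCAA (0.320% and 0.746%), TTGCGC (3.63% and 12.7%) or CACGTG (2.39% and 5.97%). Among the second-highest regions of the other genes, the cebp-1 window held TGACTCA, 44 bp from its summit. The second jun-1 window held TGATAA and GAGAGA, and the second nipi-3 window held TGATAA and TGACG, with the shares given above. After the sequence at the nipi-3 peak had been seen, the octamer TTGCGAAA was searched as well, so its count there is no independent result. The octamer matched 2 times in the window of the nipi-3 peak, in opposite orientation, and 1 of the matches ends 1 bp before the pooled summit. At least 1 match was found in 2.03% of all regions and 6.72% of thresholded peaks, and at least 2 matches in 25 of all regions and 2 of the thresholded peaks. The purine repeat at the left end of the printed nipi-3 stretch lies partly outside the 200 bp window and spans the larger summit of replicate 2. A match describes letters and does not show that a factor binds there.

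Base composition set the zip-2 sites apart from each other. The intronic window had a GC content of 54%, reached by 0.347% of all nuclear pooled regions, and the 3′ UTR window had 25%, reached by 84.4%. The nipi-3 window had 42%, the jun-1 window 35% and the cebp-1 window 44%, where the median was 30% over all regions and 41% over thresholded peaks. Whether GC content had a part in the signal was not tested.

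The peaks nearest in height show which loci had a like pooled signal in these 2 replicates. Next below nipi-3 was the peak 611 bp from the start of nhr-237, a nuclear hormone receptor gene, with a signal of 120.7 and ranks 4 and 1 in the replicates. Next above jun-1, at 80.5, was a peak with no protein-coding start within 1 kb, and next below it, at 78.6, was the peak 374 bp from eef-1A.2, which encodes a translation elongation factor, with ranks 54 and 10. Next above zip-2 was the peak 211 bp from riok-2, a RIO kinase gene, with ranks 151 and 829. Next below zip-2 was the peak 811 bp from F02E9.5, with ranks 69 and 175. Among these, the zip-2 peak had the widest gap between replicates. Wider gaps occurred at a like signal, as the peaks of pooled rank 118 and 119 had replicate ranks of 101 and 3726, and of 1650 and 35. The peak of pooled rank 117 had a narrow gap, with ranks 171 and 180.

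The pathways around the 4 genes were examined through 6 lists of stress and immunity genes, which were chosen with earlier results of these data known. In the list of nipi-3 and p38 MAP kinase genes, 3 of 13 had a thresholded peak, beside 1.98% of all genes, and nipi-3 among them was chosen on its peak. The others were tir-1 and sek-1, the adaptor and the MAP kinase kinase of the p38 pathway. The tir-1 peak had a signal of 86.6 at rank 12, with ranks 14 and 23 in the replicates, but its summit was 296 bp from the start of rpl-3, a ribosomal protein gene. The sek-1 peak had a signal of 78.6 at rank 23 and is the eef-1A.2 peak named above. Neither lay at the start of the kinase pathway gene. For pmk-1, the p38 kinase itself, the highest signal was 38.4, below the threshold, in a region 98 bp from the start of faah-2.

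None of the 9 genes of the DLK-1 and CEBP-1 list had a thresholded peak, beside 1.98% of all genes. Nothing is read from a count of none at that share. In the list of JNK and AP-1 genes, 1 of 12 had a thresholded peak, which was jun-1, chosen on it. Its dimer partner fos-1, named here after its value was seen, had a highest signal of 46.4 at rank 163, just under the threshold, in an intergenic region upstream of the gene, with ranks 2032 and 652 in the replicates. Of the 29 bZIP genes found, 4 (13.8%) had a thresholded peak, namely jun-1, zip-2, atfs-1 and skn-1, beside 1.98% of all genes, and jun-1 and zip-2 were chosen on these peaks. The atfs-1 peak had a signal of 74.6 at rank 29, with ranks 28 and 68, and lay beyond the end of that gene, which encodes the regulator of the mitochondrial unfolded protein response. skn-1, the regulator of the oxidative stress response, had 2 peaks, the higher in an intron with a signal of 55.1 at rank 82 and ranks 15 and 400 in the replicates.

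None of the 28 surveillance and immune response genes, which include reported targets of these regulators, had a thresholded peak, beside 1.98% of all genes. At that share a list of this size can hold none, so nothing is read from it. In the list of other stress response regulators, 1 of 18 had a thresholded peak. This was wdr-23, which encodes the repressor of SKN-1, with a summit 80 bp before its start, a signal of 58.1 and ranks 57 and 39. Over all lists 8 of 104 genes (7.69%) had a thresholded peak, and 5 of 100 without the 4 genes, beside the same 1.98% of all protein-coding genes. With genes that had no region taken as lowest, the median highest signal was 27.7 in the list of nipi-3 and p38 genes, 22.9 for DLK-1 and CEBP-1, 25.8 for JNK and AP-1, 28.9 for bZIP factors, 23.4 for surveillance and immune response genes and 24.6 for other regulators, where all genes had 21.9. A longer gene has a wider window and so more regions from which its highest is taken. Neither these medians nor the counts of genes with a peak were adjusted for length, so nothing is read from their differences from all genes. The lists share genes, and 2 of their 8 genes with a peak carried it nearer to a translation gene, so the counts describe places and not pathways.

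**Figure D4:**
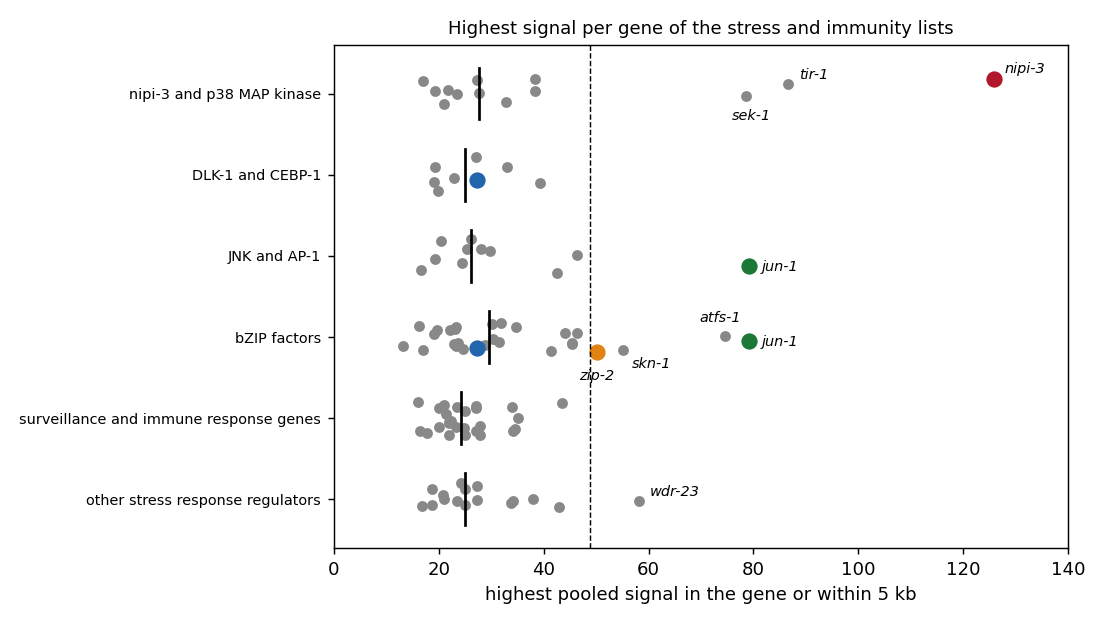
Each point is a gene of 1 of 6 lists, placed by its highest pooled signal in the gene or within 5 kb; vertical bars are list medians over genes with a region, the dashed line is the lowest nuclear thresholded signal of 48.9, and genes with a thresholded peak are named. nipi-3, tir-1, sek-1, jun-1, atfs-1, skn-1, zip-2 and wdr-23 lie to the right of the line, while the points of the DLK-1 and CEBP-1 list and of the surveillance list all lie to its left, with cebp-1 (blue) at 27.3.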

How the data were processed

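ChIP-seq peak lists of eGFP-NHR-28 in L1 larvae were analysed, with 2 replicates labelled as biological. According to the listing deposited with the files, lists of candidate regions (peaks with background) were made by the authors from each replicate and from both together, against a control, and a thresholded list was derived by the irreproducible discovery rate. The signal of each region and its −log10 q value are the authors' deposited values. For the aligner, the peak caller, the threshold and the control, no details were given in the sources used here. The lists carry no read counts, so sequencing depth is unknown, and a replicate of lower depth would order weak regions less precisely.

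The ce11 lists were used with genes of Ensembl release 115, and the ce10 lists were not used, since coordinates were not mixed between builds. A replicate region matched a pooled region when they overlapped by at least 1 bp, and the one of higher signal was taken. No test was made, because there is 1 group and the genes were chosen from the same lists. The 4 genes and the gene lists were chosen with earlier results of these data known. The annotation held 104 of the 105 list symbols. Other genes were named when their start was nearest to a described summit, when they had a thresholded peak and were in a list, or when assigned, within 1 kb, to the peak next above or below in signal; others are said to be named after their values were seen. Python 3.11.15, numpy 2.4.6, pandas 2.3.3 and matplotlib 3.10.9 were used, and the counting was tested on simulated data. Alternatives changed the window, the ranking, the peak set, the motif window and the matching of summits, and used each replicate's list alone. Counting peaks within 1 kb of a start and the octamer TTGCGAAA were added after seeing the data.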

Additional observations from a re-analysis of the deposited data

How the results depend on the processing

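Of 63 alternative values, 44 stayed near the value reported, that is within 1.5 times for a count and within 1 SD of the 2 replicate ranks for a rank, a spread that is wide for zip-2. The SD came from the same replicate ranks that were judged by it, and a count of 2 against 3 was taken as near. The 44 of 63 is therefore no measure of stability. The count of genes with a thresholded peak was 3 throughout, except for 2 above the median signal, 2 within 1 kb of the start, and 2 to 3 over the lists of single replicates. By −log10 q, nipi-3 and jun-1 were among the 71 nuclear peaks that shared the highest value. Their rank of 36 is the average over this tie, and no nuclear region had a higher value. From single replicates the rank was 1 to 7 for nipi-3, 36 to 50 for jun-1, 45 to 2190 for zip-2 and 3865 to 4578 for cebp-1. At zip-2 the site changed, as rank 45 was the intronic region and rank 2190 the 3′ UTR peak, which had rank 77 in replicate 1. By summits within 100 bp, nipi-3 had rank 1903 in replicate 2. A 2 kb window gave cebp-1 rank 10115 and nipi-3 3 regions. A 10 kb window gave cebp-1 rank 662, and 9 regions at nipi-3, 11 at cebp-1 and 12 at zip-2. The count of list genes with a peak fell to 5 with 2 kb and to 5 above the median signal, against 8. The pairs of region and motif numbered 3 in 100 bp and 11 in 400 bp, against 6. Single replicates gave 5 to 6 regions at nipi-3, 5 to 7 at cebp-1, 12 to 13 at jun-1 and 5 to 7 at zip-2. Wider windows hold more bases and genes by construction; the cause of the other shifts was not tested. No paired analysis was possible because the replicates form 1 group and no result comes from a test.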
